A study of Mus musculus with 425 samples.

Results

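Small RNA of cauda epididymal sperm from the Defb41 mouse line was sequenced in a second series of 8 libraries, which are 8 of the 425 samples of the study and 8 of its 82 small RNA libraries. They were taken by their labels, as the cauda sperm libraries of this line numbered 5 to 8 in each genotype, with 4 control and 4 cKO libraries. Control males carried 1 floxed Dgcr8 allele (Dgcr8+/fl; Defb41-iCre), and conditional knockout (cKO) males carried both (Dgcr8fl/fl), with a Cre that the cKO labels spell Defb-iCre. Both groups therefore carried the Cre and at least 1 floxed allele, and the labels give no age or strain. Defb41-iCre is named for a defensin gene of the epididymis, so the cell targeted by name is the epithelium of the duct that sperm pass through and not the sperm. A set of libraries numbered 1 to 4, called series 1 here, covers the same genotypes and tissue. The split into series rests on library numbers and names. No label says whether the series differ by animal, date or library batch. The labels do not state whether each library is a separate animal, and the p-values below cover library-to-library spread only, part or all of which may be technical. Dgcr8 mRNA is no feature of a small RNA table, and its loss was not measured in these libraries.

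Dgcr8 is the RNA-binding partner of Drosha, and together they cut most miRNA hairpins from their primary transcripts in the nucleus before Dicer trims them. Germ cells make a set of miRNAs of their own, among them the miR-34 and miR-449 family and a cluster on the X chromosome, and spermatocytes and spermatids make large amounts of pachytene piRNA from long intergenic precursors. Maturing sperm lose much of this germ cell RNA and gain tRNA fragments and miRNAs during transit through the epididymis, partly from vesicles shed by its epithelium.

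The mature sequences below belong to the miRNAs on which the results turn, with the seed (bases 2 to 8, the part that pairs with targets) in capitals. They are shown because several of the miRNAs called lower share a seed or a whole mature arm, which limits how far they count as separate results. The seeds of miR-881-3p and miR-743b-3p are shared with no other sequence shown. Sequences and coordinates are those of RefSeq for GRCm38.p6, the assembly also called mm10. The 5p arm of miR-34c was not found among the sequences used and is not shown.
miR-34b-5p: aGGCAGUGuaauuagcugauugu
miR-449a-5p: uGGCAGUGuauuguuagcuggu
miR-34b-3p: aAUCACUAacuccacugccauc
miR-34c-3p: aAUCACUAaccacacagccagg
miR-881-3p: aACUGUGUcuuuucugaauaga
miR-743b-3p: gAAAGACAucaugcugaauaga
miR-465a-5p: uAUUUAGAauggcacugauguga
miR-465b-5p: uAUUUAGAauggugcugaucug
miR-465c-5p: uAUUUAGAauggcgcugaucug
miR-465a-3p: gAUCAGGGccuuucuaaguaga
The 3p arms of miR-465b and miR-465c are identical to that of miR-465a, and the 5p arms of the 3 forms share the seed. The 5 copies Mir465, Mir465b-1, Mir465b-2, Mir465c-1 and Mir465c-2 have 3 distinct hairpins. Mir465b-1 equals Mir465b-2, Mir465c-1 equals Mir465c-2, and the aligned hairpins of the b and c forms are 93.8% identical. The Mir465 hairpin is 86.2% identical to the b forms and 84.1% to the c forms, and the 5p arms of the 3 forms differ after the seed. Reads of the shared 3p arm or of equal hairpins cannot be assigned to 1 copy with confidence. The 5 features are therefore not separate measurements.
Of the miRNAs called higher, miR-21a, miR-222 and miR-24 carry seeds other than those above, and miR-222 shares its seed with miR-221. Mir6905, also called higher, is not shown.
miR-21a-5p: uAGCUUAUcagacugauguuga
miR-222-3p: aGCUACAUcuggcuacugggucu
miR-221-3p: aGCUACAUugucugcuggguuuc
miR-24-3p: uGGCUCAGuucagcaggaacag

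The table of counts per feature held 6128908 to 10743331 reads per control library and 9186330 to 15993045 per cKO library. Levels are in RPM, the reads of a feature per 1000000 reads of its library in this table. Of 2343 features, 2238 reached 10 counts in at least 4 libraries and were tested, and 49 had no read in any of the 8. A second deposited table gives reads per RNA class, and the tables disagree in these 8 libraries. For rRNA they gave the same totals. For piRNA the feature table held 1.49 to 1.81 times the reads of the class table in control libraries and 2.15 to 5.31 times in cKO libraries, 2 ranges that do not overlap. For miRNA the ratio was 1.06 to 1.45 in control and 1.03 to 2.08 in cKO libraries, with the highest value in cKO replicate 6, and for tRNA it was 1.01 to 1.04 and 1.01 to 1.51. Repeat families had 10.9 to 37.3 times the reads of the class table. In the 20 other Defb41 libraries read here the totals of miRNA, piRNA, tRNA and rRNA were equal within 1%. Class shares are therefore given from both tables, and features were also tested with each class scaled to its total in the class table. RPM and fold changes are from the feature table unless the class table is named.

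Fragments of rRNA and tRNA made up most reads of these sperm. In the feature table rRNA took 51.9%, 49.5%, 54.8% and 28.3% of control replicates 5 to 8, and 42.2%, 66.7%, 72.4% and 49.9% of cKO replicates 5 to 8. The groups overlap, and their means of 46.1% ± 12.1 and 57.8% ± 14.1 (SD, n = 4 and 4) did not differ beyond the spread of the libraries (two-sided exact permutation p = 0.257). In the class table the rRNA means were 50.2% ± 13.2 and 64.7% ± 18.3 (exact permutation p = 0.286). The tRNA share was 26.7%, 29.5%, 32.3% and 39.0% in control and 18.2%, 8.78%, 21.6% and 26.9% in cKO libraries. Control replicate 5 lies below the highest cKO library, and the means of 31.9% ± 5.28 and 18.9% ± 7.62 gave an exact permutation p = 0.0571. In the class table the same 2 groups did not overlap, at 33.8% ± 5.40 and 19.2% ± 8.70, with the smallest exact permutation p that 4 against 4 libraries allow (0.0286, adjusted over 5 classes 0.0714).

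For piRNA the choice of table mattered most. In the feature table it made up 11.4%, 12.4%, 5.88% and 9.57% of control and 5.17%, 9.78%, 2.75% and 5.79% of cKO libraries. These groups overlap (9.83% ± 2.89 and 5.87% ± 2.92, exact permutation p = 0.114). In the class table the shares were 3.44% to 9.09% in control and 0.537% to 2.91% in cKO libraries, with no overlap. The class-table means were 6.76% ± 2.41 and 1.91% ± 1.11 (exact permutation p = 0.0286, adjusted 0.0714). Of miRNA the feature table had 6.72%, 6.14%, 5.50% and 20.9% in control and 33.1%, 8.57%, 2.47% and 15.1% in cKO libraries, a spread within each genotype that covers any difference between them (exact permutation p = 0.629). In the class table the miRNA means were 9.18% ± 8.02 and 14.1% ± 14.6 (exact permutation p = 0.657). Control replicate 8, cKO replicate 5 and cKO replicate 8 were the libraries rich in miRNA. Repeat families took 2.36% ± 0.719 of control and 2.63% ± 2.46 of cKO libraries in the feature table (exact permutation p = 0.943), and 0.128% ± 0.0425 and 0.135% ± 0.101 in the class table (exact permutation p = 0.886). No class share passed the adjusted threshold of 0.05, in either table.

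**Figure D1:**
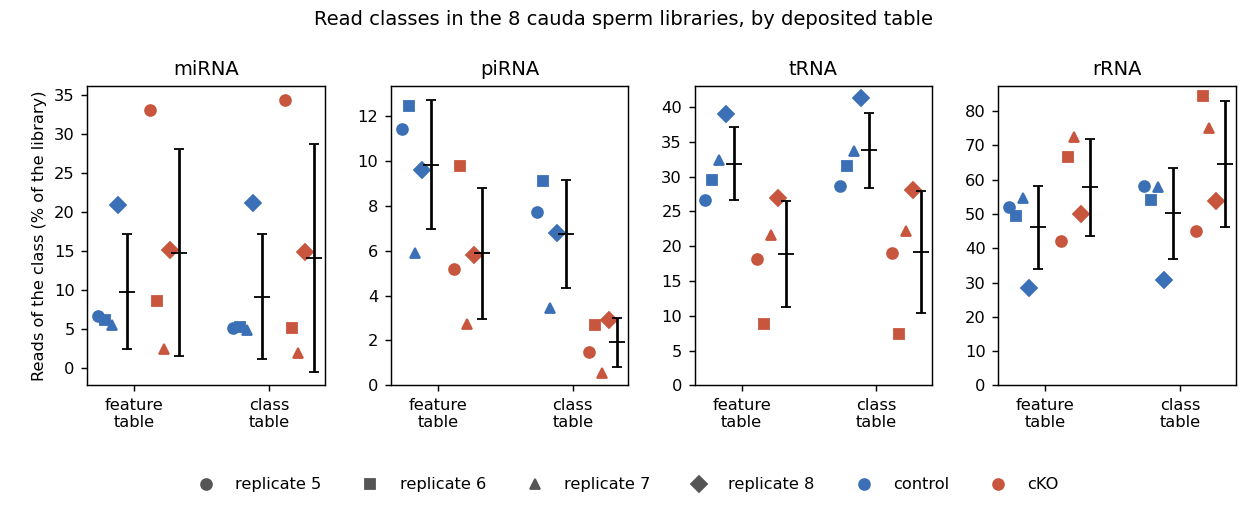
Percent of the library's reads in 4 RNA classes, from the feature table and from the class table, for the 4 control and 4 cKO libraries of series 2. Points are libraries, horizontal ticks with bars are the mean and SD of 4 libraries, and the piRNA groups separate in the class table (3.44% to 9.09% against 0.537% to 2.91%) but not in the feature table.

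The test of all features (edgeR, quasi-likelihood test with Benjamini-Hochberg adjustment, adjusted p under 0.05) called 14, of which 9 were lower and 5 higher in cKO sperm. That is 0.402% of the tested features lower and 0.223% higher. At an unadjusted p under 0.05, 9.2% were lower and 2.41% higher, and the median log2 difference over all features was 0.08. The 9 lower calls are all miRNAs known for expression in male germ cells, and all 9 were also called lower in series 1, where 14.1% of 1718 features were called lower and 0.349% higher. The number of calls rests on single libraries: it was 9, 1, 0 and 2 without control replicate 5, 6, 7 or 8, and 2, 211, 68 and 23 without cKO replicate 5, 6, 7 or 8. Without cKO replicate 5 these were 0.0891% higher and 0% lower, and without cKO replicate 6 1.43% higher and 8% lower. TMM scaling called 215 features, 27 higher (1.21%) and 188 lower (8.4%), and DESeq2 called 416, 142 higher (6.34%) and 274 lower (12.2%). Scaling each class to its total in the class table called 188 that include all 14, with 11 higher (0.492%) and 177 lower (7.91%).

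Mir34c and Mir34b are made from 1 transcript and, with miR-449, act in spermatogenesis and in cells with motile cilia. Mir34c stood at 659.7, 1433, 463 and 1176 RPM in control replicates 5 to 8 and at 136.5, 31.7, 21.3 and 231 RPM in cKO replicates 5 to 8. All 4 cKO libraries lie below all 4 controls, with the lowest values in cKO replicates 6 and 7. Mir34c fell by 3.15 on the log2 scale (SE 0.83, edgeR adjusted p = 0.0276). Mir34b stood at 235, 703, 275 and 458 RPM in control and at 40.4, 21.9, 10.6 and 128 RPM in cKO libraries. It too showed no overlap and fell by 3.05 (SE 0.82, edgeR adjusted p = 0.0328). The hairpins lie at 51103034 to 51103110 and 51103562 to 51103645 on the minus strand of chromosome 9, within an intron of Btg4, which is transcribed from the other strand (GENCODE vM21). In a bulk library fewer cells of a type and less RNA per cell cannot be told apart.

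Of the 6 members of the miR-34 and miR-449 family 2 were called lower, against 0.402% of all features tested. Mir449a, with the seed of miR-34b-5p, stood at 34.3 to 142 RPM in control and 5.25 to 33.2 RPM in cKO libraries without overlap, and did not pass (log2 difference −2.09, edgeR adjusted p = 0.15). Mir34a, Mir449b and Mir449c overlapped between groups, with log2 differences of 1.15, 0.39 and 0.30. Mir34a, the member found widely outside the germ line, stood at 123 RPM in cKO replicate 5 and at 3.13 to 34.4 RPM in the other 7 libraries. The median log2 difference over the 6 was −0.89. Summed over the family, control libraries held 807 to 2337 RPM and cKO libraries 44.5 to 429 RPM.

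The X-linked testis cluster is a run of fast-evolving miRNA genes that are active in the testis. Hairpins of 19 of the 22 members in the table lie within 62.4 kb of chromosome X (66776757 to 66839125, minus strand), and those of Mir201, Mir547 and Mir509 lie outside it. None of the called members overlaps another annotated gene. Of the 22 members 7 were called lower and 0 higher, against 0.402% and 0.223% of all features tested. The 7 include the 5 copies of Mir465. Mir881 stood at 142, 388, 240.2 and 299.5 RPM in control and 46.3, 7.30, 6.13 and 54.5 RPM in cKO libraries. No cKO library reached the lowest control, and Mir881 fell by 3.23 (SE 0.82, edgeR adjusted p = 0.0238). Mir743b stood at 64.1, 209.8, 105 and 116 RPM in control and 11.3, 8.33, 2.19 and 21.9 RPM in cKO libraries, again without overlap. It fell by 3.50 (SE 0.85, edgeR adjusted p = 0.0182).

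Mir465c-1 stood at 214, 479, 309 and 319 RPM in control and 38.4, 13.6, 9.82 and 72.7 RPM in cKO libraries. The same order of the cKO libraries, with replicate 8 highest, replicate 5 next and replicates 6 and 7 low, appears in Mir34c, Mir881 and all 5 Mir465 copies. The 5 copies fell by 3.13 to 3.32 (edgeR adjusted p from 0.0238 to 0.0276). Because they share the 3p arm, these are not 5 separate results. Over the whole list 14 of 22 members had all 4 cKO libraries below all 4 controls, against 9.12% of all features tested. The 8 members that overlapped were at most at 23.2 RPM in any library, the highest being Mir547 in control replicate 8. The median log2 difference of the list was −2.57, against 0.08 over all features. Summed over the list, control libraries held 1415, 3275, 2053 and 2346 RPM and cKO libraries 321, 206, 83.5 and 594 RPM.

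**Figure D2:**
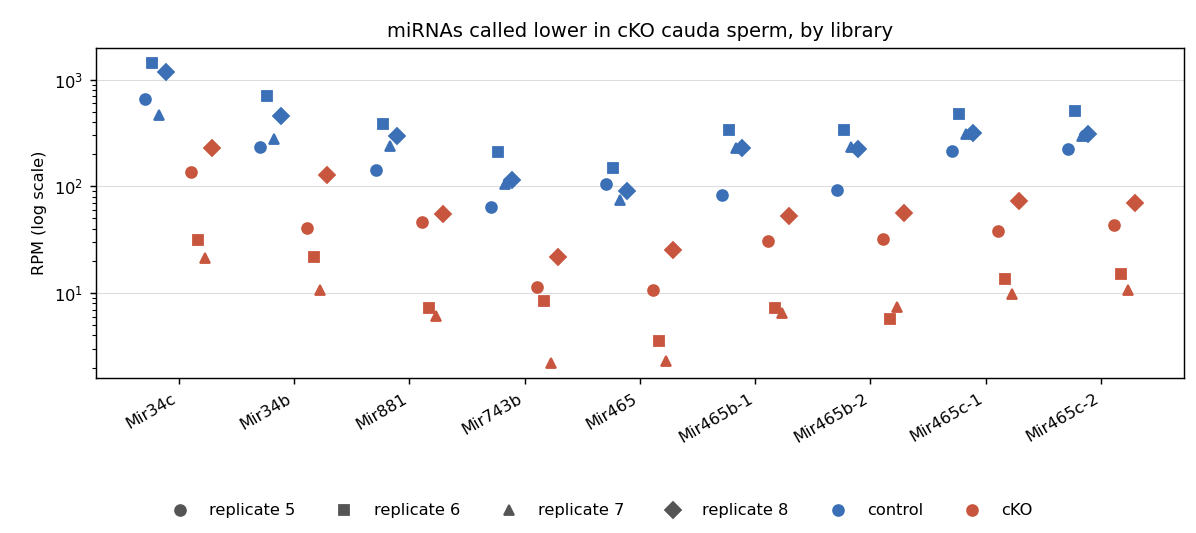
Level in RPM (log scale) of the 9 miRNAs called lower in cKO cauda sperm, with 4 control and 4 cKO libraries each. Every cKO point lies below every control point of the same miRNA, and cKO replicates 6 and 7 are lowest.

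These 9 calls kept their direction in all 8 fits that left out 1 library, with log2 differences from −4.26 to −2.68, and each passed in 3 or 4 of the 8. Under TMM scaling 5 of them passed, Mir743b, Mir34b, Mir465, Mir465c-1 and Mir465c-2, and with cKO replicates 5 and 6 both left out none did (Mir34c −2.89, Mir881 −3.14). Of all 1051 miRNAs tested, 21 (2%) had every cKO library below every control, against 9.12% of all features tested. Those 21 were 14 members of the X-linked list, Mir34b, Mir34c and Mir449a, together with Mir184, Mir375, Mir6951 and Mir7234, the last 2 at under 30 RPM and named after their values were seen.

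Mir184 is abundant in testis. It stood at 531, 981, 479 and 504 RPM in control and 249, 74.0, 25.2 and 162 RPM in cKO libraries, without overlap, at a log2 difference of −2.29 (SE 0.80, edgeR adjusted p = 0.0998). Mir375, known from endocrine cells, stood at 473, 810.2, 477 and 523 RPM in control and 165, 150.2, 65.5 and 176 RPM in cKO libraries. The groups did not overlap, and the log2 difference of −2.04 (SE 0.79) did not pass either (edgeR adjusted p = 0.15). Mir375 belongs to the list of epithelial miRNAs, and Mir184 to a further list of 9 germ cell miRNAs outside the clusters above. In that list edgeR called none, 5 of 9 were below 0 and the median log2 difference was −0.09. Only Mir184 and the X-linked Mir741, which is on both lists, separated the genotypes. Mir191, its most abundant member, overlapped, at 1569 to 4766 RPM in control and 10815, 529, 300.5 and 2651 RPM in cKO libraries.

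Each of the 5 features called higher rests on 1 cKO library. Mir21a, abundant in many somatic and immune cells, stood at 1092, 369.5, 385 and 1668 RPM in control libraries, at 58846 RPM in cKO replicate 5 and at 1099, 173 and 1157 RPM in cKO replicates 6 to 8. Without replicate 5 its log2 difference went from 4.12 (SE 0.81, edgeR adjusted p = 0.000464) to −0.12. Mir222, known from endothelium and other somatic cells, stood at 3888 RPM in the same library and at 16.3 to 144 RPM in the other 7 (log2 difference 3.64, edgeR adjusted p = 0.00991, and 0.13 without replicate 5). Mir24-1 stood at 275 RPM there and at 2.69 to 15.9 RPM elsewhere (3.16, edgeR adjusted p = 0.0342, and 0.40 without replicate 5).

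The other 2 calls belong to cKO replicate 6. RLTR13D1:ERV2, the long terminal repeat of an endogenous retrovirus family, stood at 2651 RPM there and at 5.32 to 41.3 RPM in the other 7 libraries. Its log2 difference was 4.63 (SE 0.89, edgeR adjusted p = 0.000395) and −0.67 without that library. Mir6905, annotated in an intron of Med23, stood at 290.1 RPM there and at 1.56 to 9.04 RPM elsewhere (3.88, edgeR adjusted p = 0.00849, and 0.18 without that library). Without the library that held its high value, none of the 5 passed.

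Both libraries stand apart beyond these calls. In cKO replicate 5, 29 tested features were at least 4 times higher than in any other library, all of them miRNAs and all at 164 RPM or more. They include 6 of the 9 miRNAs on the immune cell list, 5 of 10 on the fibroblast list and 3 of 5 of miR-21, miR-221 and miR-222. Mir142, a marker of leukocytes, stood at 4070 RPM in that library and at 22.5 to 191 RPM in the other 7, and Mir181a-2, of lymphocytes among other cells, at 3429 RPM against 64.1 to 412 RPM. Mir22 stood at 47820 RPM there and at 414 to 4494 RPM elsewhere, and Mir27b at 24810 RPM against 150.0 to 2114 RPM. The summed immune list came to 14698 RPM in cKO replicate 5, to 607 to 1311 RPM in controls and to 227 to 1229 RPM in the other cKO libraries. In cKO replicate 6, 72 features were at least 4 times higher than in any other library, namely 48 miRNAs, 10 tRNAs, 10 repeat families and 4 piRNA loci. They stood at 20.8 to 2651 RPM in that library, and in 17 of the 72 the next library was under 10 RPM. The part of these markers in the higher calls was not tested.

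Markers of the duct were high in replicate 8 of both genotypes. Mir10a and Mir10b, abundant in epididymal tissue, stood at 50041 and 44341 RPM in control replicate 8 and at 33314 and 30764 RPM in cKO replicate 8. In the other 6 libraries Mir10a was at 3007 to 17785 RPM and Mir10b at 3477 to 7826 RPM. Of the epithelial miR-200 family, Mir141 stood at 2081 RPM and Mir429 at 1139 RPM in control replicate 8, at 1359 and 745 RPM in cKO replicate 8, and at 134 to 319 and 59.5 to 149.9 RPM in the other 6. Mir148a was likewise highest in these 2 libraries, at 5602 and 2993 RPM. Mir486 and Mir451a, miRNAs of red blood cells, stood at 5449 and 243 RPM in control replicate 8, at 4659 and 133 RPM in cKO replicate 8, and at 87.3 to 1533 and 5.88 to 57.6 RPM elsewhere. None of the defining markers of leukocytes, epithelium, red blood cells, muscle (Mir143 at 383 to 964 RPM) or endothelium (Mir126a at 7.88 to 36.1 RPM) was at 0.

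Only 5 features (0.223%) had all 4 cKO libraries above all 4 controls, and none of them was called. They are named after their values were seen: Mir5126, Mir5130, Mir682, Mir8112 and LTRIS4B:ERV1. Mir682 stood at 51.4, 36.3, 19.4 and 39.8 RPM in control and 203.1, 182, 52.8 and 57.5 RPM in cKO libraries (log2 difference 1.75, edgeR adjusted p = 0.266).

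edgeR called no member of the lists for let-7, miR-30, miR-17-92, miR-200, muscle, red blood cells, endothelium or Dgcr8-independent miRNAs. DESeq2 called 2 Dgcr8-independent miRNAs higher and no member of the other 7 lists, against 6.34% of all features higher. Without cKO replicate 6 edgeR called 4 let-7 members, 1 miR-30 member and 1 Dgcr8-independent miRNA higher, against 1.43% of all features. The let-7 and miR-98 list of 14 had a median log2 difference of 1.12, with 87591 RPM summed in cKO replicate 5, 32676 and 28288 RPM in control and cKO replicate 8, and 4096 to 7186 RPM in the other 5. Mirlet7f-2 followed that order, at 20732, 5985 and 5303 RPM in these 3 libraries and 540.0 to 1412 RPM in the rest. Mir30d stood at 8854 RPM in cKO replicate 5 and at 147 to 1222 RPM elsewhere. The 11 miRNAs made without Dgcr8 had a median of 0.76. Without cKO replicate 6 their median was −0.10, and that over all features was −0.69. Mir320, made from a short hairpin that skips Drosha, stood at 73.0 to 178 RPM in control and 609, 213, 63.5 and 287 RPM in cKO libraries. Mir1247 overlapped between genotypes as well, at 1973 to 7558 RPM in control and 661 to 4907 RPM in cKO libraries.

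**Figure D3:**
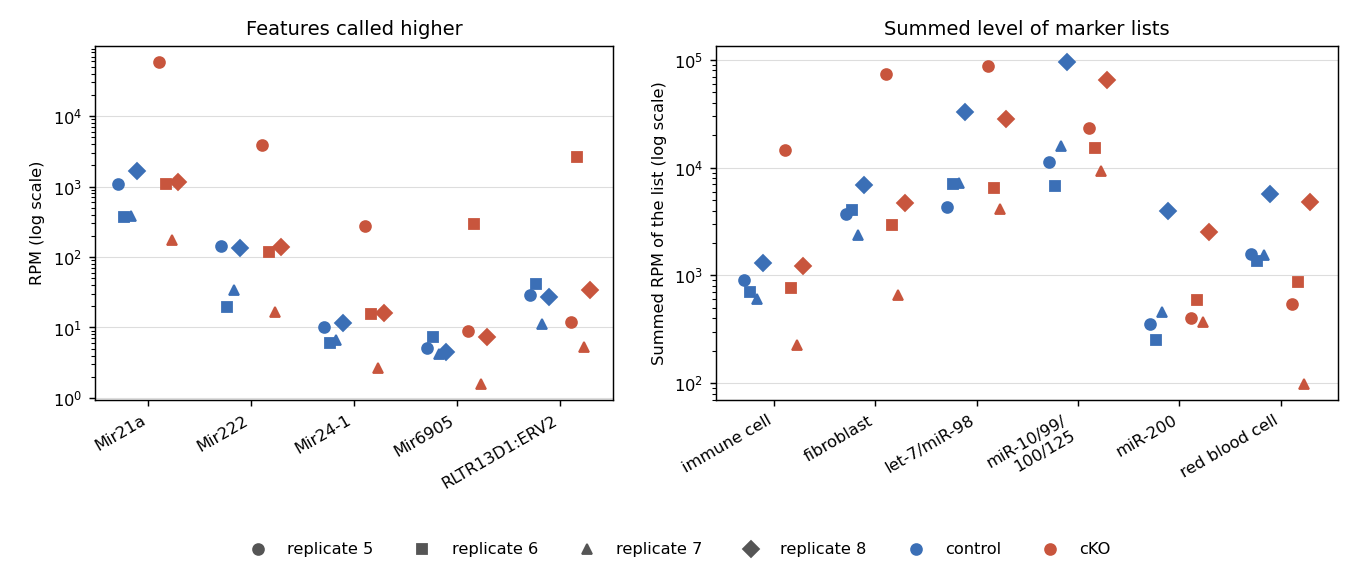
Level in RPM (log scale) of the 5 features called higher (left) and summed RPM (log scale) of 6 miRNA lists (right), with 4 control and 4 cKO libraries each. In the left panel 1 cKO library holds each high value, replicate 5 for Mir21a, Mir222 and Mir24-1 and replicate 6 for Mir6905 and RLTR13D1:ERV2, and in the right panel cKO replicate 5 leads the immune, fibroblast and let-7 lists while replicate 8 of both genotypes leads miR-10, miR-200 and red blood cell lists.

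piRNA loci named by band had a lower median difference than genic loci, with either table. The table names 217 loci by chromosome band and 250 by a gene (genic loci here), of which 217 and 248 were tested. No piRNA locus of either kind passed the adjusted threshold. At an unadjusted p under 0.05, 115 loci named by band and 4 genic loci were lower, and 0 and 1 higher. Of all features 9.2% were lower and 2.41% higher at that threshold. All 4 cKO libraries were below all 4 controls at 99 of the 217 loci named by band and at 4 of the 248 genic loci, against 9.12% of all features. Median log2 differences were −1.63 and −0.02, and 206 of 217 and 132 of 248 loci were below 0, against 45.4% of all features. With each class scaled to the class table the medians were −2.59 for loci named by band and −1.11 for genic loci, so the genic value near 0 holds in the feature table and not in the class table. Among loci named by band, those above the median level of 83.9 RPM held 64 of the 99 separated loci (64 of 108), and the rest 35 (35 of 109). TMM scaling called 114 loci named by band lower, and 123 were called lower with each class scaled to the class table. These 2 settings called 8.4% and 7.91% of all features lower.

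The summed level of loci named by band was 56920, 81588, 32005 and 59526 RPM in control and 19873, 28865, 14714 and 25469 RPM in cKO libraries, without overlap. Genic loci summed to 57288, 42883, 26831 and 36199 RPM in control and 31871, 68936, 12744 and 32472 RPM in cKO libraries, which overlap. The most abundant locus of band qA3.3 on chromosome 17 stood at 1804, 3162, 1076 and 2382 RPM in control and 240.0, 399, 82.7 and 801 RPM in cKO libraries. Its log2 difference was −2.47 (SE 0.80, edgeR adjusted p = 0.0666), and it passed with TMM (edgeR adjusted p = 0.0429) and with the class table (−3.29, edgeR adjusted p = 0.0167). The most abundant locus of band qA5.3 on chromosome 9 stood at 1420, 2297, 760 and 1775 RPM in control and 186, 309.5, 56.7 and 585 RPM in cKO libraries, without overlap (−2.46, edgeR adjusted p = 0.0667). At 9-qC-31469.1, cKO replicate 6 with 1022 RPM lay just above control replicate 7 with 995 RPM (−1.85, edgeR adjusted p = 0.201). The genic locus pi-Fam53b.1 stood at 977 to 3245 RPM in control and 514 to 1932 RPM in cKO libraries (−0.72, edgeR adjusted p = 0.996).

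**Figure D4:**
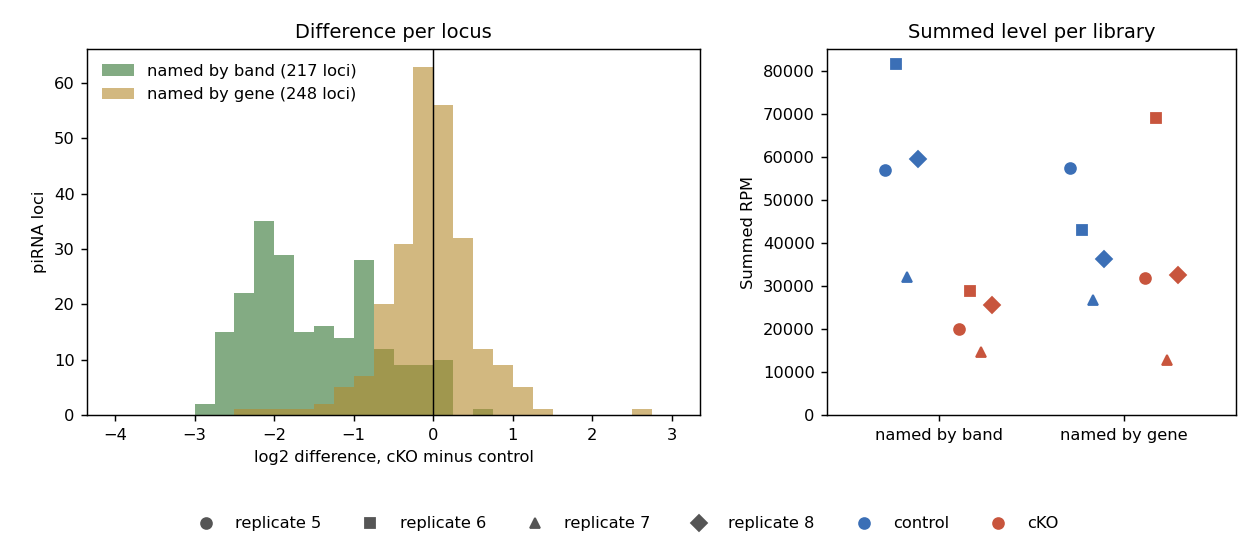
Left, number of piRNA loci by log2 difference between cKO and control libraries, for 217 loci named by band and 248 named by gene. Right, summed RPM of both kinds in each of the 8 libraries, where the loci named by band separate the genotypes (32005 to 81588 RPM in control against 14714 to 28865 RPM in cKO) and genic loci do not.

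Among 435 tRNA genes edgeR called none, and 79 had all 4 cKO libraries below all 4 controls. These are calls of edgeR at the table total. TMM called 55 tRNA genes (3 higher, 52 lower), DESeq2 105 (44 higher, 61 lower) and 31 were called with each class scaled to the class table, all lower. The 79 stand against 9.12% of all features, and TMM called 8.4% of all features lower. DESeq2 called 12.2% of all features lower and 6.34% higher, and scaling to the class table called 7.91% lower. Genes with the same anticodon differ among themselves, with log2 differences of −0.99 to 1.01 among GluCTC genes and −2.82 to 0.78 among CysGCA genes. Copies of near-identical sequence can share fragments, so counts of genes are not counts of independent measurements. Fragments of tRNA-Gly-GCC and tRNA-Glu-CTC, known as major small RNAs of mature mouse sperm, were the most abundant. The 13 GluCTC genes summed to 98604, 116226, 95580 and 77065 RPM in control and 47739, 22130, 67777 and 59450 RPM in cKO libraries. The groups did not overlap, and the median log2 difference was −0.98. The 14 GlyGCC genes summed to 116158, 121214, 106381 and 189800 RPM in control and 74432, 20562, 69272 and 106753 RPM in cKO libraries. Here cKO replicate 8 just passed control replicate 7, and the gene chr2.trna1747-GlyGCC, at 11541, 12041, 10681 and 18967 RPM in control, stood at 7423, 2012, 6883 and 10605 RPM in cKO libraries. The median log2 difference of the 21 genes of the glutamate list was −0.97, and 0.05 with TMM, so its direction depends on the scaling. That of the 28 genes of the glycine list was −0.37, and −0.07 with TMM. With each class scaled to its own total the glycine median was 0.78, so its direction depends on the scaling as well.

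Genes for tRNA-Cys-GCA, which make up a large array of copies in the mouse, gave the largest tRNA difference, a group chosen after its values were seen. Of 57 copies tested 34 had all cKO libraries below all controls, against 9.12% of all features. Those 34 stood at 34.6 to 54.2, 71.7 to 86.8, 19.6 to 26.1 and 32.9 to 40.5 RPM in control replicates 5 to 8 and at 3.48 to 7.19, 4.30 to 21.9, 3.69 to 7.50 and 11.3 to 18.6 RPM in cKO replicates 5 to 8. Their log2 differences were −2.82 to −1.91, and 32 copies passed with TMM and 31 with the class table. Of all features, 8.4% were called lower with TMM and 7.91% with the class table. In series 1 the median over the copies was −0.81, against −2.54 here. The leucine list of 30 genes had 16 separated genes and a median of −1.53, and 8 passed with TMM. Of the 9 SerAGA genes 7 were separated, at a median of −1.93, and 7 passed with TMM, a group also chosen after its values were seen. The 16 aspartate genes lay the other way, with a median log2 difference of 0.83, and 799, 1254, 511 and 839 RPM summed in control and 1047, 984, 1635 and 1648 RPM in cKO libraries. The groups overlap, and edgeR called none of the 16, while DESeq2 called 13 higher, against 6.34% of all features.

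The rRNA features did not separate the genotypes. Fragments assigned to the 45S precursor stood at 263231, 261976, 286896 and 141593 RPM in control and 206139, 348109, 369422 and 251796 RPM in cKO libraries. Those of 28S stood at 121461 to 198375 RPM in control and 161894 to 289574 RPM in cKO libraries, those of 18S at 6614 to 44510 and 7015 to 35820 RPM, those of 5.8S at 4070 to 45263 and 3457 to 21340 RPM, and those of 5S at 9445 to 16426 and 6195 to 25621 RPM. Of 282 repeat families tested 1 was called, the RLTR13D1:ERV2 result above. The most abundant, RLTR6I_MM:ERV1, RLTR4I_MM:ERV1 and IAPLTR3_I:ERV2, are retroviral families. They stood at 966 to 2935, 1021 to 1524 and 653 to 2321 RPM in control and 356 to 3056, 512 to 3072 and 283 to 1790 RPM in cKO libraries, with cKO replicate 6 highest among the cKO libraries in each. Repeat values rest on the feature table alone, whose totals are furthest from the class table.

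The genotype difference in series 2 was then compared with that in series 1, in 1 fit of all 16 cauda sperm libraries. The difference between the series passed for 2 of 2241 features (0.0892%), both higher in series 2, with 0 lower. At an unadjusted p under 0.05, 4.91% were higher and 0.491% lower. RLTR13D1:ERV2 differed by 4.63 on the log2 scale (edgeR adjusted p = 0.0172), from the single library described above. The piRNA locus 5-qF-4633.1 in band qF of chromosome 5 differed by 3.99 (edgeR adjusted p = 0.0454). In series 2 it stood at 4034, 4318, 2813 and 1730 RPM in control and 4953, 2355, 5550 and 1610 RPM in cKO libraries, with overlap and a log2 difference of 0.17, and the entry 5-qF-4633.2 had nearly the same counts. In series 1 it stood at 166 ± 116 RPM in control and 11.7 ± 8.07 RPM in cKO libraries (SD, n = 4 and 4) and fell by 3.83 (edgeR adjusted p = 2.33e-05). Neither passed with TMM or the class table.

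For the germ cell miRNAs called in series 2 no difference between the series passed with edgeR. Mir34c differed by 0.22 between the series (SE 0.96, edgeR adjusted p = 0.9996), at −3.15 in series 2 and −3.37 in series 1, and Mir881 by −0.13 (SE 0.97), at −3.23 and −3.10. With these errors a difference of 1 on the log2 scale between the series would not have been detectable. Of 18 X-linked members tested in both, 17 were negative in both, with medians of −2.74 in series 2 and −2.60 in series 1, and of the 14 called lower in series 1, 12 separated fully in series 2. The piRNA loci named by band were negative in both series at 200 of 213, and at 208 of 213 the difference was nearer to 0 in series 2, with medians of −1.69 and −3.40. Series 1 called 179 of these 213 lower, and 99 of the 179 separated fully in series 2. Over all features tested in both, series 1 called 242 lower, and 126 of the 242 separated fully in series 2. For all 1718 features tested in both series, 613 were negative in both and 1002 were nearer to 0 in series 2. With series 2 scaled to the class table, the band loci had a median of −2.63 and 180 of 213 were nearer to 0. The test of the difference between the series called 1 locus named by band with edgeR (5-qF-4633.1), 0 with TMM or the class table, and 63 of 217 with DESeq2, 62 of them higher in series 2. Over these 217 the median difference between the series was 1.61, and 0.69 with the class table. For the 248 genic loci the class table gave −1.07. Mir183, which rose in series 1 (2.63, edgeR adjusted p = 0.002), stood at 36.9 to 304 RPM in control and 27.8 to 220 RPM in cKO libraries of series 2, with a log2 difference of −0.14, and that difference between the series did not pass (edgeR adjusted p = 0.515).

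**Figure D5:**
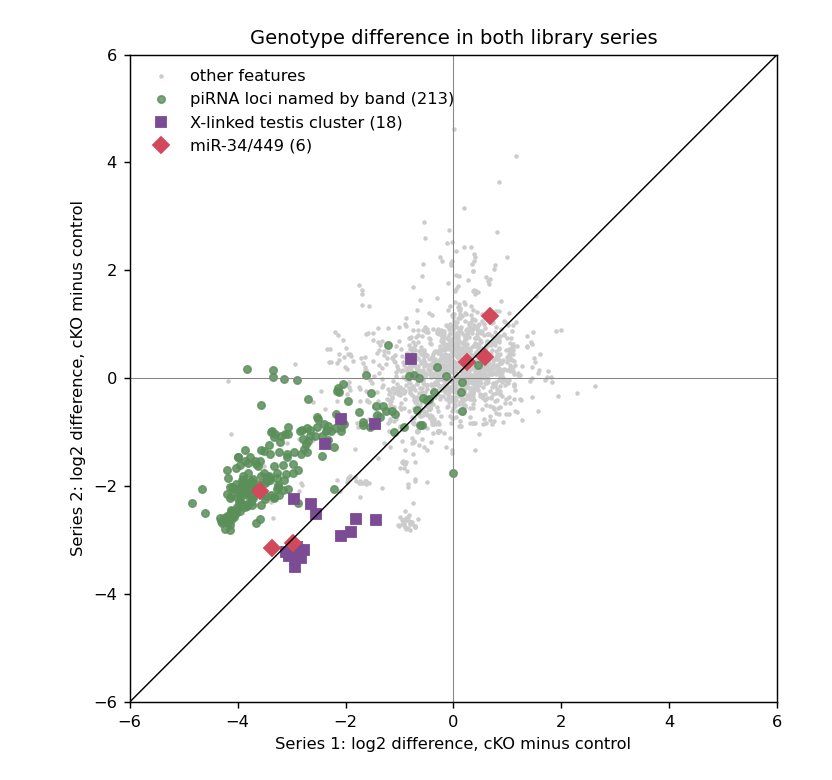
Log2 difference between cKO and control cauda sperm in series 1 (horizontal) and series 2 (vertical) for 1718 features tested in both, with the line of equal values. Of 18 X-linked members 17 lie below 0 on both axes, while 208 of the 213 piRNA loci named by band lie nearer to 0 in series 2 than in series 1, as do 1002 of all 1718 features. Values are from the feature table, and 180 of the 213 lie nearer to 0 when series 2 is scaled to the class table.

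The control libraries alone show how far the series themselves lie apart. Between the 4 control libraries of each series 1443 features were higher in series 2 (64.4%) and 82 lower (3.66%), with a median log2 difference of 2.56. Under TMM scaling the split was 602 higher and 678 lower with a median of 0.08, so the direction of single features between the series depends on the scaling. The rRNA share was 28.3% to 54.8% in series 2 controls and 3.27% to 19.6% in series 1 controls, and the tRNA share 26.7% to 39.0% against 58.8% to 86.6%, neither with overlap. By class 806 of 1054 miRNAs were higher, and 776 with the class table. For repeat families the tables gave opposite directions, with 255 of 282 higher in the feature table and 4 higher and 79 lower with the class table. Glycine tRNA fragments summed to 116981 to 209010 RPM in series 2 controls and 318349 to 577960 RPM in series 1 controls. Library series and any other difference between these males cannot be told apart.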

How the data were processed

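Per the labels' protocols, total RNA was run on a gel to isolate small RNA of 18 to 40 nt, and Illumina TruSeq small RNA libraries were made. The submitters' processing notes name Bowtie2, and the labels name the build mm10, with versions and counting rules not given in the sources used here. The authors deposited whole-number counts per feature and, in a second table, counts of reads per RNA class. Its mRNA column, estimated counts as deposited, how made not given in the sources used here, was left out. RPM, shares and ratios were computed here from these deposited counts.

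Features with at least 10 counts in 4 libraries were tested with edgeR 4.0.16 (R 4.3.3), quasi-likelihood test, library size equal to the table total, no composition factor, Benjamini-Hochberg adjustment over all features tested, SE taken as the log2 difference over the square root of F. DESeq2 1.42.0 was an alternative. The shares of each class went into an exact permutation test, two-sided, over 70 splits (scipy 1.17.1), for which 0.0286 is the smallest p. On simulated counts for 2238 features, the test of cKO against control recovered 62% of 50 features lowered by 3 on the log2 scale. It recovered 10% of those lowered by 2, 24% of those raised by 2 and 72% of those raised by 3, with 1 false call. The simulated counts were drawn independently for each feature and library. They hold no library that stands apart in many features, as some do here, so these rates may not hold for these libraries. Within each genotype no 2 libraries were alike within sampling noise. Control libraries were not compared with cKO libraries in that check.

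Genes named are every called feature, the most abundant of each class, the 2 most abundant of each list, and those leading the comparisons with series 1; exceptions are marked. The members and lists were chosen with earlier results of these data known. Other alternatives were the filter, library size without repeats, classes rescaled to the class table or to their own total, a fit of all 16 libraries, a replicate term and leaving out libraries; leaving out cKO replicates 5 and 6 together was added after the data were seen. Hairpin overlaps come from GENCODE vM21, and 45 of 49 named miRNAs matched a RefSeq hairpin by symbol.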

Additional observations from a re-analysis of the deposited data

Results flagged for a closer look

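Of 118 groups of 4 libraries examined, 33 held 1 library far from its group (gap to the next library over the range of the group above the critical value of Dixon's test at 95%). Chance gives about 1 group in 20 only for independent groups of normally distributed values that were not chosen by those values. Many features here were chosen by their values and vary together, so the 33 cannot be set against that rate. The flagged points are single values, and their causes were not tested.

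Most of them belong to 3 libraries. In cKO replicate 5 these were Mir21a at 58846 RPM, Mir22 at 47820 RPM, Mir27b at 24810 RPM, Mir30d at 8854 RPM, Mir142 at 4070 RPM, Mir222 at 3888 RPM, Mir181a-2 at 3429 RPM and Mir24-1 at 275.3 RPM, together with 5S rRNA at 25621 RPM. In control replicate 8 they were Mir10a at 50041 RPM, Mir10b at 44341 RPM, Mirlet7f-2 at 5985 RPM, Mir148a at 5602 RPM, Mir486 at 5449 RPM, Mir27b at 2114 RPM, Mir141 at 2081 RPM, Mir429 at 1139 RPM, Mir183 at 303.7 RPM and Mir451a at 243.1 RPM, with chr2.trna1747-GlyGCC at 18967 RPM. The miRNA share of that library was 20.9% in the feature table and 21.2% in the class table, and its rRNA share in the class table was the lowest of the controls at 30.6%. In cKO replicate 8 they were Mir10b at 30764 RPM, Mir486 at 4659 RPM, Mir141 at 1359 RPM, Mir429 at 744.8 RPM and Mir451a at 132.8 RPM.

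In cKO replicate 6, RLTR13D1:ERV2 stood apart at 2651 RPM and Mir6905 at 290.1 RPM. In control replicate 6, Mir184 stood apart at 981.4 RPM and Mir375 at 810.2 RPM, both above the other controls. In control replicate 5 the repeat share in the class table was 0.191%, the highest of the controls.

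The genotype difference passed the test of a difference between the series for 5-qF-4633.1 (log2 3.99) and for RLTR13D1:ERV2 (log2 4.63), of which the second rests on cKO replicate 6.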

How the results depend on the processing

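The 14 features called in series 2 stayed 14 with no filter on low counts or without repeats in the library size, and became 215 with TMM, 416 with DESeq2, 188 with classes rescaled to the class table, 0 scaled to the class total and 111 with all 16 libraries in the fit. Without cKO replicates 5 and 6 together 0 were called, and 1 with TMM as well. Leaving out 1 library gave 0 to 211 calls. The 2 features that differed between the series became 0 with TMM, 103 with DESeq2 (70 of them piRNA loci), 0 with the class table and 0 without cKO replicates 5 and 6, and 0 to 3 with 1 library left out. The 1525 control features that differed between the series ranged from 1398 to 1630 with 1 library left out. The cause of these shifts was not tested. DESeq2 gave no adjusted p for Mir21a, Mir222, Mir24-1 and RLTR13D1:ERV2.

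With 1 library left out, cKO minus control shares ranged from −1.08 (without cKO replicate 5) to 9.13 percentage points for miRNA, −5.27 to −2.92 for piRNA, −15.6 to −9.62 for tRNA, 5.72 to 16.9 for rRNA and −0.91 (without cKO replicate 6) to 0.914 for repeats, where it was −0.0102 without control replicate 7. Log2 differences turned sign for RLTR13D1:ERV2 (−0.67 without cKO replicate 6, −0.47 without 5 and 6), Mir21a (−0.12 without cKO replicate 5, −0.40 without both), Mir6905 (−0.26 without both), Mir222 (−0.11 without both) and 5-qF-4633.1 (−1.14 with the class table, −0.04 without control replicate 8, −0.02 without cKO replicate 5, −0.12 without cKO replicate 7). With 1 library left out their highest values were 5.04 for RLTR13D1:ERV2, 4.64 for Mir21a and 0.41 for 5-qF-4633.1.

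The replicate block called 165 features, 0 higher and 165 lower, 9 of them among the 14, and 2 for the difference between the series. Deviations of same-numbered libraries correlated at −0.337, 0.002, 0.399 and 0.309 for numbers 5 to 8. Control replicate 7 correlated best with cKO replicate 7, but control replicate 5 did so with cKO replicate 6 (0.562). With so few libraries these correlations cannot decide whether the numbers pair the libraries. Depth limits what can be said of features with few counts: 2238 of 2343 reached the minimum of 10 counts in 4 libraries.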
